A study of Mus musculus with 33 samples.

Results

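The genes described here are those whose transcripts kept ending mostly at the distal poly(A) site after Nudt21 was deleted in cultured mouse esophageal basal cells. They were chosen from the authors' pooled PAS-seq ratios of proximal to distal site use, each turned into a proximal share of the 2 sites in percent. A gene was taken when its proximal share was under 20% in control cells and its share in knockout (KO) cells lay less than 5 points away, in either direction. This gave 594 of the 4324 genes in the PAS-seq table (13.7%), called resistant genes below. They were 26.1% of the 2274 genes that had a control share under 20% and so could have met the rule. Of the others in that pool, 1651 (72.6%) moved at least 5 points towards the proximal site and are called shifted genes, and 29 moved at least 5 points towards the distal site. A further 2048 genes already had a control share of 20% or more, and 2 had no control value.

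The 3' end of an mRNA is made by cleavage of the transcript and addition of a poly(A) tail, and many genes carry several poly(A) sites, so the choice of site sets how much 3' untranslated region (UTR) a transcript keeps. Nudt21 encodes CFIm25, the part of cleavage factor Im that binds RNA, a complex that helps to make that choice and is known for favouring distal sites in many genes, so that its loss shortens many 3' UTRs. The PAS-seq assay reads the 3' ends of transcripts and so counts how often each site is used.

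All cells were homozygous for a floxed Nudt21 allele, and the PAS-seq labels add R26CreER, a Cre recombinase switched on by tamoxifen. Control cells, called day 0, had ethanol for 4 days and kept the floxed allele. The KO cells had 0.05 uM 4-hydroxytamoxifen (4OHT) for 2, 4 or 6 days. For 4 or 6 days, the hypomorph cells had 0.05 uM 4OHT together with doxycycline at 50 ng/ml. Every group grew in the same medium, which held the kinase inhibitors Y-27632, CHIR99021, A83-01 and DMH-1. Every hypomorph sample, and no other, had doxycycline, so its effect and the hypomorph state cannot be told apart. The mRNA data were 18 libraries in 6 groups of 3 (day 0, KO days 2, 4 and 6, hypomorph days 4 and 6). PAS-seq covered control, KO day 4 and hypomorph day 4 cells with 3 samples each, which the authors pooled to 1 ratio per gene and group. The labels do not say that replicates were separate cultures, and p-values then reflect how far these libraries scatter, some or all of which may be technical.

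The mRNA libraries held 16.3 M to 91.4 M reads on the listed genes. Nudt21 itself was at 12.9 ± 1.15 scaled CPM (SD, n = 3) at day 0, 3.03 ± 0.805 at KO day 4 and 5.01 ± 1.20 at hypomorph day 4, and no KO or hypomorph library reached the day 0 range. The liver transcript Alb was above 100 scaled CPM in 7 libraries, of the day 0 and KO groups only, and its part in the results was not tested. Fits without them keep 11 libraries, with a lone one for day 0, KO day 4 and KO day 6. Fewer calls in those fits can come from fewer libraries alone. All 18 basal epithelial markers were in the table, with a summed level of 38000 to 48000 scaled CPM over the libraries, Krt5 alone giving 11700 to 15000. Of the markers of other cell types, 1 of 8 fibroblast, 1 of 6 endothelial, 1 of 6 muscle, 2 of 7 leukocyte and 4 of 9 columnar genes were in the table. The leukocyte sum was 72.9 to 81.3 at day 0, 458 to 499 at KO day 6 and 471 to 512 at hypomorph day 6. Nearly all of it was Cd68, a lysosomal protein, while Ptprc, which marks all leukocytes, stayed between 0 and 15.9. The columnar sum, mostly Epcam, was 48.7 to 61.9 at day 0, 93.0 to 104 at KO day 2, 112 to 122 at KO day 4 and 81.5 to 87.7 at KO day 6. The part of these markers in the results was not tested.

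Among the resistant genes the median proximal share was 2.31% in control cells and 3.20% in KO cells, and the median difference was 0.24 points. The shifted genes started from a median of 5.26% and stood at 48.0% in KO cells, a median difference of 40.8 points. These shares chose the members, so they describe the set and were not tested. The control share was under 1% in 180 resistant genes and under 5% in 423, and both shares were under 5% in 361. The KO share was the higher in 335 and the lower in 259. Because the limit was set in points, small ratios could still change by a large factor. Of the 584 resistant genes with a control ratio above 0, the KO ratio was at least 2 times the control ratio in 124, at most 1/2 of it in 80, and between these in 380. The authors' deposited table called a KO change in 1 resistant gene and in 1276 of the 1651 shifted genes (77.3%). That gene was Cmas, which makes the activated form of sialic acid, with a share of 0% in control and 4.90% in KO cells. The authors' calls come from the same PAS-seq data as the rule, so their split between the sets follows in part from it. The table gives no reads behind a ratio and no replicate values, so the error of each share is unknown.

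Some genes lay close to the limits. On the control share, Mrps18c (19.9% in control, 22.8% in KO) and Trap1 (19.6% and 21.0%) were just inside, and Pax9 (20.0% and 20.0%) and Gtse1 (20.2% and 20.8%) just outside. On the rise, Spc25 (4.94 points) and Spry2 (4.90) were inside, and Ptk7 (5.03) and Chordc1 (5.12) outside. On the fall, Lamb1 (-4.99) and Nmd3 (-4.92) were inside, and Vta1 and Hspa5 (each -5.08) outside. The set thus shades into its neighbours. At the far end, Atp8a1, Hells and Yeats4 went from 0% proximal in control to 100% in KO cells.

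**Figure D1:**
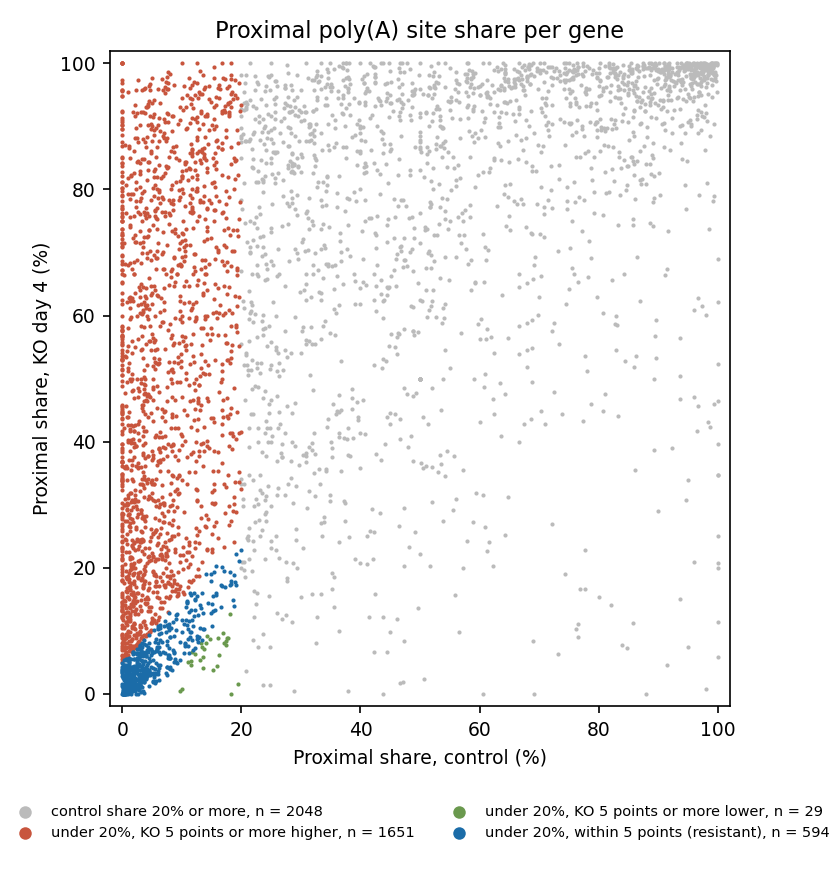
Proximal poly(A) site share of each gene in KO day 4 cells (vertical, percent) against control cells (horizontal, percent), 1 point per gene, from the authors' pooled ratios. The 594 resistant genes form a band along the diagonal below a control share of 20%, while the 1651 shifted genes spread above it up to 100%.

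Resistant genes were short and highly expressed. Their median Length was 2400 bases, against 4470 for shifted genes and 3790 for all genes of the PAS-seq table, so shifted genes were 1.86 times as long. Length is a column of the deposited mRNA table, which does not define it. The median genomic span, from the RefSeq annotation of GRCm38.p6, was 16600 bases for resistant and 42000 for shifted genes. At day 0 the median mRNA level per kb of Length was 43.6 scaled CPM per kb in resistant genes and 18 in shifted genes, a ratio of 2.42. The level not divided by Length differed less, with a median of 100 scaled CPM against 81.6, a ratio of 1.23. Length and level per kb share a term, and their Spearman correlation over the 2274 genes was -0.52. No test was made of these differences, since genes are not replicates.

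The share of genes that were resistant fell with each quartile bin of Length, from 52.9% of the shortest 569 genes (up to 2430 bases) through 27.8% and 14.3% to 9.49% of the longest 569 (over 5940 bases). It rose with each quartile bin of level per kb, from 9.31% through 18.1% and 29.4% to 47.6%. Of 300 genes in the lowest quartile bin of Length and the highest of level per kb, 190 were resistant (63.3%), against 14 of 273 (5.13%) in the opposite corner. Within the lowest Length bin the share still climbed with level, from 30.0% to 63.3%, and within the highest level bin it still fell with Length, from 63.3% to 23.3%. Over the 2274 genes, the Spearman correlation of the change in share was 0.44 with Length, 0.39 with genomic span, -0.37 with level per kb and -0.11 with undivided level. These are correlations across genes within 1 experiment, and genes are not independent. A gene with few reads has a noisier ratio, and the part of that noise in the relation with level was not tested.

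Low starting share went with resistance as well. Of genes with a control share above 0% and up to 1%, 60.9% were resistant, and the percentage was 39.8% from 1% to 2%, 29.4% from 2% to 5%, 18.7% from 5% to 10% and 14.1% from 10% to 20%. Genes with no proximal use in control cells were the exception, with 10 of 201 resistant (4.98%). Part of this order is set by the fixed limit of 5 points. The Length difference was present in each of these bins. Among genes with no proximal use in control cells the medians were 3300 bases over 10 resistant and 5400 over 191 shifted genes. Between 0% and 1%, resistant genes had a median Length of 1880 and shifted genes 4140, and between 10% and 20% the medians were 2900 and 4580. Level per kb behaved likewise, with medians of 75.6 and 33.5 scaled CPM per kb between 0% and 1% and 24.6 and 16.3 between 10% and 20%. Among genes with no proximal use in control cells they were 25.8 and 11.2.

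**Figure D2:**
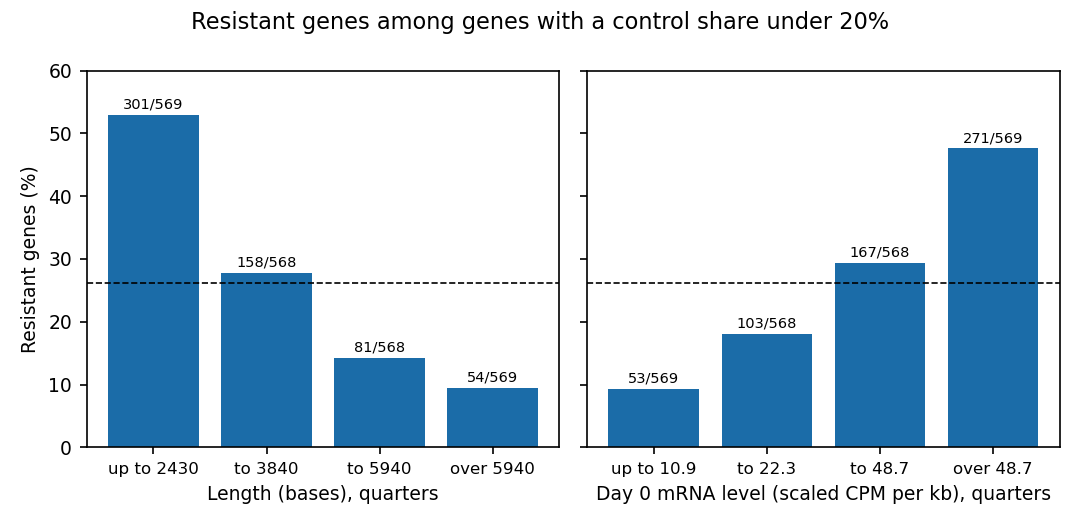
Percent of genes that were resistant, among the 2274 genes with a control share under 20%, by quartile bins of Length in bases (left) and of day 0 mRNA level in scaled CPM per kb (right). Numbers above bars are resistant genes of genes in the bin, and the dashed line is the 26.1% of the whole pool. The bars fall from 52.9% to 9.49% with Length and rise from 9.31% to 47.6% with level.

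The extremes show the range. The shortest members were Atp5k (292 bases), a subunit of the mitochondrial ATP synthase, Rps26 (448 bases), a protein of the small ribosomal subunit, and Ndufb4 (454 bases), of respiratory complex I. The longest were Mprip (20121 bases), which binds myosin phosphatase, Mdn1 (17987 bases), an ATPase of ribosome assembly, and Plec (17515 bases), encoding the cytoskeletal linker plectin. Plec, at chr15:76170974-76231378 (GRCm38.p6), had a share of 0.829% in control and 0.259% in KO cells despite its size. The highest day 0 levels per kb were those of Anxa1 (1550 scaled CPM per kb), Actb (1530), S100a6 (1450), Hsp90ab1 (1400), Anxa2 (1260) and Rpl8 (1180). Anxa1 and Anxa2 encode annexins, which bind membranes in the presence of calcium, S100a6 encodes a small calcium-binding protein, and Actb encodes beta-actin, at chr5:142903115-142907976. In all 6 of these the proximal share stayed under 3%, with Hsp90ab1 highest at 2.75% in control cells and 1.23% in KO cells.

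Gene lists were read for how many of their genes with a control share under 20% were resistant, beside the 26.1% of the whole pool. The lists were chosen with earlier results of these data known. Genes of energy production stood highest. Of 32 subunits of the respiratory chain and ATP synthase in that pool, 28 were resistant (87.5%), with a median Length of 1160 bases over the 32. They came from complex I (among them Ndufa13, Ndufb7 and Ndufs1), complex II (Sdhb), complex III (Uqcrc1 and Uqcrq), cytochrome c oxidase (such as Cox5a and Cox6c) and ATP synthase (Atp5d, Atp5g2 and Atp5k). Ndufb7, at chr8:83566758-83571623, used the proximal site at 0.610% in control and 0.684% in KO cells. The 4 that shifted were Atp5a1, Ndufb3, Sdhc and Uqcrfs1.

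Lists of protein synthesis also stood above the pool. Of the genes listed as translation initiation factors 9 of 14 were resistant (64.3%). The list also holds Eif4a3 (resistant) and Eif4ebp2 and Eif4enif1 (both shifted), which are not core initiation factors. Of those 9 resistant genes, 7 were subunits of eIF3, the complex that brings the small ribosomal subunit to mRNA. Of the mitochondrial ribosomal proteins 10 of 16 were resistant (62.5%), and of the cytosolic ones 9 of 15, among them Rps26 (6.81% and 6.65%), Rpl32 (1.50% and 1.22%) and Rps15 (1.70% and 0.440%). For ribosomal proteins most genes of the table had a control share of 20% or more and could not be members, 31 of 46 cytosolic and 29 of 45 mitochondrial ones. Reads of ribosomal protein genes can be shared with processed pseudogenes, so their values are uncertain.

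The list with the second highest share was the proteasome. Of its subunits 13 of 19 were resistant (68.4%). They came from the core (such as Psma1 and Psmb7), the ATPase ring (Psmc1, Psmc2 and Psmc3), other regulatory subunits (Psmd2 and Psmd4) and the activator (Psme1). Psma4, Psmc6, Psmd7, Psmd11, Psmd14 and Psme4 shifted. Of the chaperones 4 of 7 were resistant, namely Cct3 and Cct8 of the cytosolic chaperonin, Hsp90ab1 and Hspa8. Hspa8 had shares of 0.693% and 0.249%. Of mitosis genes 4 of 7 were resistant (Aurkb, Cdc20, Cdk1 and Nusap1), while all 4 DNA replication genes in the pool (Mcm2, Mcm4, Pcna and Rpa1) shifted. Among basal epithelial markers 3 of 6 were resistant, namely Itga3 and Lama3, which encode an integrin subunit and its laminin ligand, and Trp63, the transcription factor of squamous basal cells.

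Other lists stood below the pool. None of 19 Rab GTPases, which direct vesicle traffic, was resistant, with 18 shifted and 1 moved towards the distal site. The pattern of that list was narrowed after its members had been seen. The count was 1 of 8 for vacuolar ATPase subunits, 1 of 9 for kinesins, 2 of 14 for SR and hnRNP splicing proteins, 2 of 13 for Zfp zinc finger genes and 4 of 18 for DEAD-box and DEAH-box helicases. None of 4 cleavage and polyadenylation factors, 2 ubiquitin E2 enzymes or 2 squamous differentiation genes was. Of 4 genes listed as CFIm25 targets from other systems, Psmb2 was resistant (1.06% and 1.37%), and Ccnd1, Glud1 and Vma21 shifted. The splicing proteins in the pool had a median of 147 scaled CPM per kb, beside 65.6 for the respiratory subunits, with a median Length of 2920. The Rab genes had a median Length of 2620 bases, beside the pool's 3840. In lists above the pool it was 635 for cytosolic and 1360 for mitochondrial ribosomal proteins, 1500 for proteasome subunits and 2150 for initiation factors. For chaperones it was 2170, for mitosis genes 2860 and for basal markers 6540. No list was tested against the others, and what sets these shares apart was not tested.

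**Figure D3:**
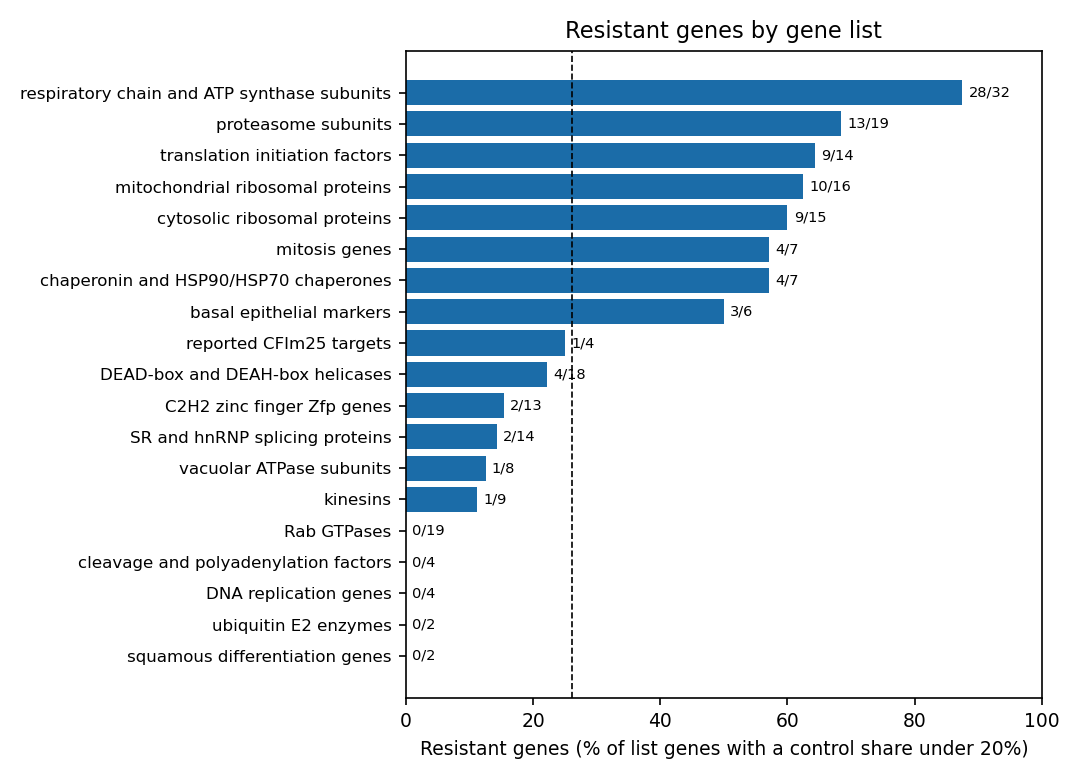
Percent of each gene list's genes with a control share under 20% that were resistant, with the counts beside the bars and a dashed line at the 26.1% of all such genes. Respiratory chain and ATP synthase subunits reach 28 of 32, and Rab GTPases 0 of 19. Lists were chosen with earlier results of these data known, and the Rab list was narrowed after its members had been seen.

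The mRNA series asks whether genes that kept their distal site also kept their mRNA level. All 594 resistant genes were in the mRNA table and passed the filter on low values. A gene was called when limma's test gave a Benjamini-Hochberg adjusted p under 0.05 over 12344 genes. All 5 comparisons share the 3 day 0 libraries. In these bulk samples, fewer cells of a type and less RNA per cell cannot be told apart.

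At KO day 2, 99 resistant genes were called higher and 3 lower, which together is 17.2% of them beside 19.0% of all genes. The 3 lower genes were Nsdhl, Clu and Abhd17c, the last named after its value was seen. Of all genes 11.7% were higher and 7.29% lower, and of the shifted genes 14.7% and 10.8%, so lower calls were rare among resistant genes at 0.505%. All genes of the PAS-seq table had 15.4% higher and 8.05% lower, in all 23.5%. No resistant gene was called past 2-fold, and few genes were at that day, 0.786% of all genes upward and 0.77% downward. Of the shifted genes 0.121% were past it upward and 0.363% downward. The KO day 2 libraries held 52.2 M to 69.6 M reads and the day 0 libraries 16.3 M to 19.0 M. With depth as a term in the fit, 28 resistant genes were higher and 5 lower, and without the libraries high in Alb 34 and 2. The total of 102 calls fell to 51 without day 0 replicate 1, to 49 without KO day 2 replicate 1 and to 43 without its replicate 3. With edgeR on recovered reads the split was 66 higher and 15 lower.

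At KO day 4, the day of the PAS-seq samples, 160 resistant genes were higher (26.9%) and 112 lower (18.9%). The 45.8% called is close to the 46.0% of all genes, of which 23.7% were higher and 22.3% lower. It is below the 52.6% of all genes of the PAS-seq table, of which 23.6% were higher and 29.0% lower. Of the shifted genes 20.6% were higher and 36.2% lower, and the median log2 change was 0.04 in resistant and -0.09 in shifted genes, beside 0.03 in all genes tested. In each quartile bin of Length and of level per kb, the percentage called lower was smaller in resistant than in shifted genes. That difference between the sets was not tested. The mRNA and PAS-seq samples of day 0 and day 4 carry the same library names and may come from the same RNA, so the mRNA of day 4 may not be independent of the rule. Without the libraries high in Alb, 93 resistant genes were higher and 28 lower. With depth as a term the split was 130 and 133. Past 2-fold were 6 genes upward (1.01%) and 3 downward (0.505%), beside 4.47% and 2.97% of all genes and 1.09% and 3.45% of shifted genes.

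At KO day 6, 168 resistant genes were higher (28.3%) and 299 lower (50.3%), in all 78.6% beside 71.1% of all genes (33.6% higher and 37.5% lower). All genes of the PAS-seq table gave nearly the same percentages, 27.5% higher and 49.8% lower, and so did shifted genes, with 27.1% and 51.8%. Centring each library on its median moved the median log2 change of all genes from -0.03 to 0.11, and the resistant genes to 214 higher and 264 lower. Past 2-fold were 24 genes upward (4.04%) and 99 downward (16.7%), beside 13.3% and 13.2% of all genes and 4.85% and 16.8% of shifted genes. Of the 112 genes lower at day 4, 107 were lower at day 6, 3 were not called and 2 (Clu and Clk1) were higher. Over the 3 KO days 44 resistant genes were higher each time (7.41%, beside 6.21% of all genes), Nsdhl and Abhd17c were lower each time (0.337%, beside 4.46%), and 89 were never called (15.0%, beside 20.7%). Of the shifted genes 7.75% were higher each time, 8.54% lower each time and 12.7% never called.

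In the hypomorph, 134 resistant genes were higher (22.6%) and 81 lower (13.6%) at day 4, in all 36.2% beside 31.7% of all genes (17.5% higher and 14.1% lower). Among shifted genes 12.2% were higher and 26.2% lower. All genes of the PAS-seq table had 15.5% higher and 21.2% lower, in all 36.7%. With edgeR on recovered reads the resistant genes split into 129 higher and 118 lower, and without the libraries high in Alb into 68 and 20. At day 6 the resistant genes had 245 higher calls (41.2%) and 213 lower (35.9%), in all 77.1% beside 67.2% of all genes (35.9% higher and 31.3% lower), with 36.1% and 37.1% for shifted genes. All genes of the PAS-seq table had 38.5% higher and 35.0% lower, in all 73.5%. In none of the 5 comparisons were 18 resistant genes called (3.03%), beside 9.90% of all genes and 4.36% of shifted genes. The hypomorph's PAS ratio equalled the KO ratio in 466 of the 594 genes, so the deposited hypomorph ratios were not used.

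**Figure D4:**
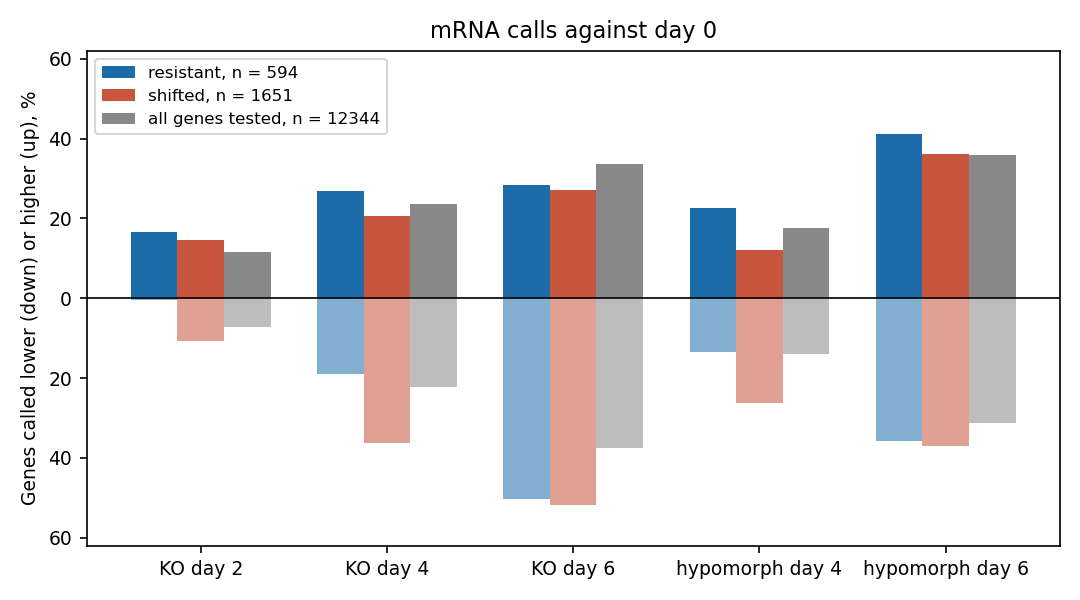
Percent of genes called higher (upward bars) and lower (downward, paler bars) than day 0 in each mRNA comparison, for the 594 resistant, 1651 shifted and 12344 tested genes. At KO day 2 the lower calls are 0.505% of resistant and 10.8% of shifted genes, and at KO day 6 these sets reach 50.3% and 51.8%.

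Vat1, Tapbp and Gpnmb were among the 5 largest rises at both KO days 4 and 6. Vat1, an oxidoreductase of vesicle membranes at chr11:101458748-101466199, was at 69.0, 83.3 and 71.0 scaled CPM at day 0, 223, 263 and 234 at KO day 4, 421, 373 and 426 at KO day 6, and 315, 339 and 362 at hypomorph day 6. Every library of those later groups was above every day 0 library. The log2 change was 1.68 ± 0.08 (SE) at KO day 4 (limma adjusted p = 1.03e-15) and 2.44 ± 0.08 at KO day 6 (adjusted p = 5.40e-20). Its proximal share was 2.30% in control and 2.39% in KO cells.

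Tapbp encodes tapasin, which helps load peptides onto class I histocompatibility molecules. Its level was 32.2, 39.5 and 32.7 scaled CPM at day 0, 52.3, 49.4 and 52.2 at KO day 2, 90.4, 107 and 106 at KO day 4, and 213, 220 and 237 at KO day 6. The KO groups did not overlap each other or day 0. The log2 rise was 1.53 ± 0.09 at KO day 4 and 2.67 ± 0.09 at KO day 6 (limma adjusted p = 2.28e-13 and 1.85e-19), and in the hypomorph at day 6 it was 1.41 ± 0.09 (adjusted p = 1.72e-13).

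Gpnmb encodes a glycoprotein of lysosomes and melanosomes. It was at 151, 201 and 192 scaled CPM at day 0, at 461, 503 and 494 at KO day 4 and at 1030, 954 and 982 at KO day 6. In the hypomorph it reached 708, 728 and 738 at day 4 and 1120, 1280 and 1350 at day 6, also clear of day 0. Its log2 change was 1.43 ± 0.08 by KO day 4, 2.46 ± 0.08 by KO day 6 and 2.79 ± 0.08 in the hypomorph at day 6 (limma adjusted p = 9.25e-14, 1.29e-19 and 1.22e-20). Cd68, also a lysosomal protein and no member, moved with it, as given above, and its part was not tested.

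Other large rises were those of Crip2, Klk10, Sun2 and Lgals3. Crip2, a LIM domain protein, rose by 1.27 ± 0.08 on the log2 scale at KO day 4 (limma adjusted p = 9.00e-13) and stood 0.52 ± 0.08 above day 0 at KO day 6. Klk10, of the kallikrein family of secreted proteases, rose by 1.06 ± 0.11 and 1.36 ± 0.11 at those days. Sun2, which joins the nuclear envelope to the cytoskeleton, went from 30.4, 32.6 and 34.0 scaled CPM at day 0 to 125, 131 and 136 at KO day 6, and Lgals3, encoding galectin-3, from 196, 258 and 191 to 751, 686 and 767. Neither pair of groups overlapped. Their log2 changes at KO day 6 were 2.00 ± 0.10 and 1.78 ± 0.09 (limma adjusted p = 2.93e-16 and 4.39e-15).

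The largest fall at both KO days 4 and 6 was that of Nsdhl, a sterol dehydrogenase of cholesterol synthesis at chrX:72918521-72958528. Its level was 162, 176 and 166 scaled CPM at day 0, 134, 130 and 137 at KO day 2, 49.2, 43.7 and 40.1 at KO day 4, and 21.8, 24.1 and 21.9 at KO day 6. Each KO group lay wholly below the one before it. The log2 change was -1.91 ± 0.08 at KO day 4 and -2.87 ± 0.08 at KO day 6 (limma adjusted p = 4.76e-17 and 2.09e-21). In the hypomorph the libraries were at 104, 106 and 111 at day 4 and at 74.3, 75.4 and 76.9 at day 6, below day 0 and above the KO of the same day. The hypomorph was 1.27 ± 0.08 above the KO at day 4 and 1.72 ± 0.08 at day 6 on the log2 scale (adjusted p = 1.83e-12 and 1.80e-16). Its proximal share was 0.901% in control and 4.32% in KO cells.

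Scoc encodes a short coiled-coil protein of the Golgi. It was at 38.1, 33.8 and 37.4 scaled CPM at day 0, at 15.8, 13.4 and 14.8 at KO day 4 and at 6.07, 7.50 and 6.31 at KO day 6. The hypomorph libraries of day 6, at 27.3, 32.6 and 36.0, overlapped day 0. The log2 change at KO day 6 was -2.38 ± 0.12 (limma adjusted p = 3.14e-16), against -0.19 ± 0.12 in the hypomorph (adjusted p = 0.154), and the difference between the states at day 6 was 2.18 ± 0.12 (adjusted p = 7.16e-15).

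Slc1a5, a transporter of glutamine and other neutral amino acids, was at 160, 140 and 155 scaled CPM at day 0, at 84.3, 80.4 and 73.0 at KO day 4 and at 31.5, 35.8 and 36.9 at KO day 6. The groups did not overlap, and the log2 changes were -0.93 ± 0.08 and -2.11 ± 0.08 (limma adjusted p = 9.67e-11 and 3.99e-19). Ap1s3, a subunit of the AP-1 clathrin adaptor, fell by 0.93 ± 0.13 at KO day 4 (adjusted p = 1.93e-06) and by 1.58 ± 0.13 at KO day 6 (adjusted p = 2.45e-11). Clu, encoding the secreted chaperone clusterin, went both ways. Its libraries were at 106, 126 and 94.9 at day 0, at 51.9, 48.3 and 58.5 at KO day 4, and at 157, 160 and 167 at KO day 6, with changes of -1.03 ± 0.10 and 0.57 ± 0.10 (adjusted p = 1.43e-09 and 8.20e-06).

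Other falls came mainly between KO days 4 and 6. Uhrf1, which maintains DNA methylation in dividing cells, was at 191, 178 and 223 scaled CPM at day 0, at 180, 182 and 175 at KO day 4, and at 29.8, 31.1 and 39.2 at KO day 6. Day 4 overlapped day 0 and day 6 lay far below both. The log2 change was -0.13 ± 0.10 at KO day 4 (limma adjusted p = 0.282) and -2.55 ± 0.10 at KO day 6 (adjusted p = 1.84e-18), and -2.75 ± 0.10 at hypomorph day 6. Nup85, of the nuclear pore, stood at 136, 135 and 142 at day 0, at 107, 104 and 91.5 at KO day 4 and at 26.6, 22.4 and 28.9 at KO day 6. Srm, the spermidine synthase, went from 201, 211 and 226 at day 0 to 158, 165 and 167 at KO day 4 and 50.1, 42.0 and 51.1, with a log2 change of -2.15 ± 0.08 (adjusted p = 3.92e-19), while the hypomorph's change at day 6 was -0.39 ± 0.08 (adjusted p = 7.88e-05).

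**Figure D5:**
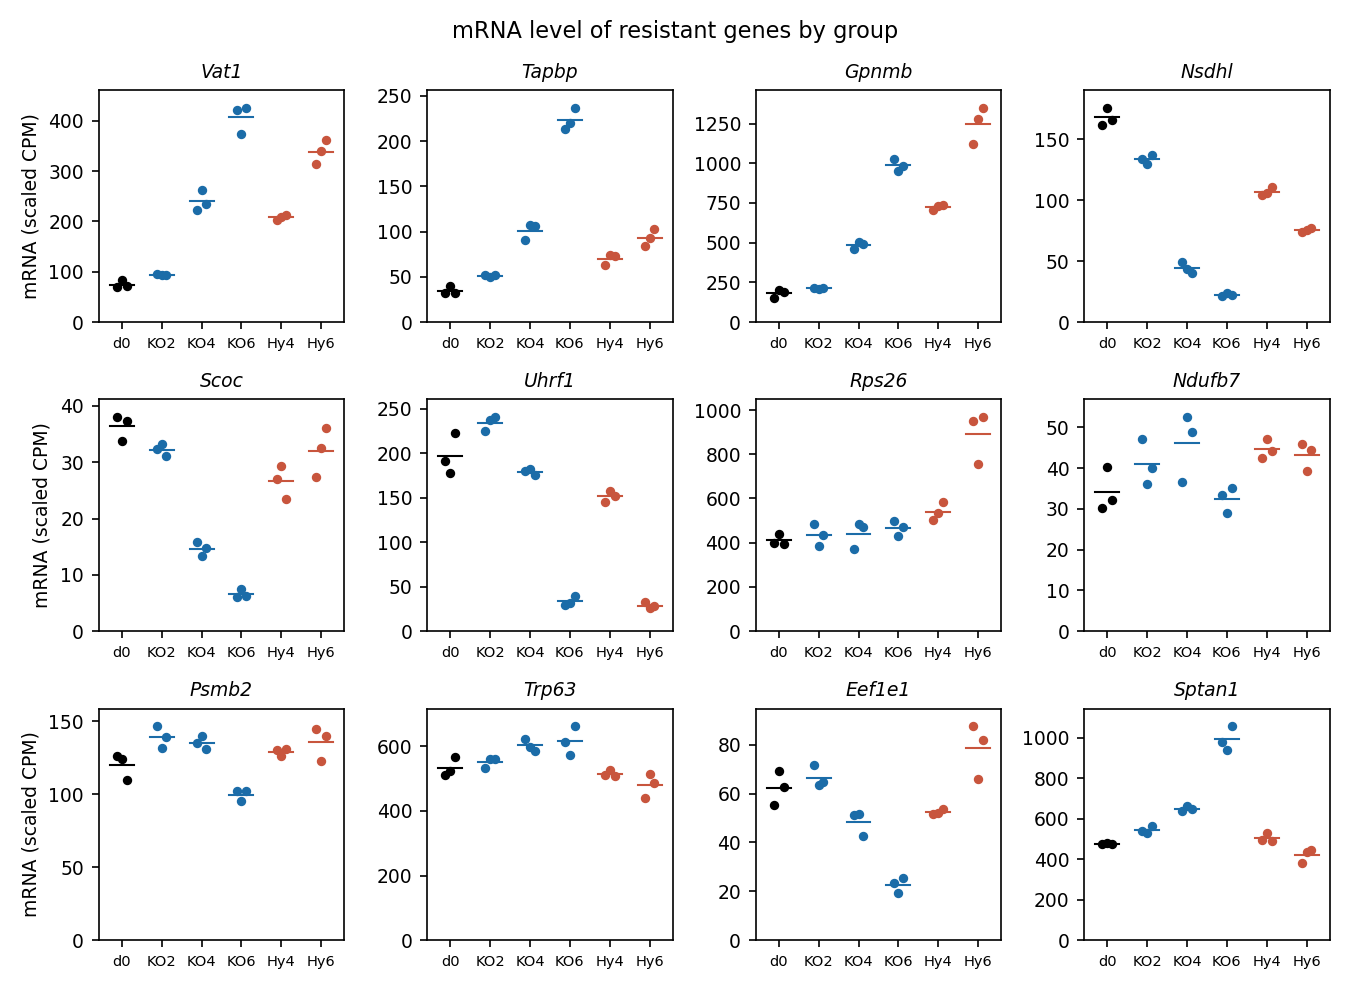
mRNA level in scaled CPM (vertical) of 12 resistant genes in the 18 libraries, by group (d0, day 0; KO2, KO4 and KO6, KO days 2, 4 and 6; Hy4 and Hy6, hypomorph days 4 and 6). Points are libraries and lines are means of 3. Vat1, Tapbp and Gpnmb climb with KO time, Nsdhl and Scoc fall, and Uhrf1 drops from 175 to 182 at KO day 4 to 29.8 to 39.2 at KO day 6.

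For comparison with the lists, 26.9% of all resistant genes were higher and 18.9% lower at KO day 4, and 28.3% and 50.3% at KO day 6. In the hypomorph these were 22.6% and 13.6% at day 4, and 41.2% and 35.9% at day 6. For all genes they were 23.7% and 22.3%, 33.6% and 37.5%, 17.5% and 14.1%, and 35.9% and 31.3%, in that order. No list was tested against these shares. Read by list, most of the resistant respiratory chain and ATP synthase genes were not called in the KO at day 4. At KO day 4, 4 of 28 were higher and 1 lower, with a median log2 change of 0.08, and at KO day 6, 9 were higher and 5 lower, with a median of 0.02. In the hypomorph 8 were higher and 1 lower at day 4, and 21 higher and 1 lower at day 6, with a median of 0.48. Without the libraries high in Alb, day 0, KO day 4 and KO day 6 each rest on a lone library, and most calls outside hypomorph day 6 were lost. The median log2 change was then 0.14 at KO day 4 and -0.03 at KO day 6. In the hypomorph it was 0.02 at day 4 and 0.41 at day 6. Ndufa13, of complex I, went from 52.6, 59.0 and 42.7 scaled CPM at day 0 to 111, 82.6 and 105 at hypomorph day 6, a log2 rise of 0.95 ± 0.12 (limma adjusted p = 4.45e-07) with no overlap. Ndufs1, also of complex I, fell by 0.39 ± 0.08 on the log2 scale at KO day 4 (adjusted p = 0.000175). Ndufb7 gave a log2 change of 0.42 ± 0.13 at KO day 4 (adjusted p = 0.00793). That call was lost without day 0 replicate 1 or KO day 4 replicate 2 (highest adjusted p of these fits = 0.0642) and in 1 other alternative.

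The resistant cytosolic ribosomal genes were called most often in the hypomorph at day 6, when 41.2% of all resistant genes and 35.9% of all genes were higher. Of 9, 1 was called higher at KO day 4, 3 at KO day 6, 5 at hypomorph day 4 and 9 at hypomorph day 6, with none lower, and the last had a median log2 change of 1.10. Without the libraries high in Alb the counts were 2, 1, 1 and 9 in that order. Rps26 was at 397, 439 and 394 scaled CPM at day 0 and at 950, 757 and 970 at hypomorph day 6, against 498, 429 and 469 at KO day 6. The KO libraries overlapped day 0 and the hypomorph libraries did not. Its log2 change was 1.11 ± 0.11 at hypomorph day 6 (limma adjusted p = 6.44e-09) and 0.18 ± 0.11 at KO day 6 (adjusted p = 0.134), and the states differed by 0.93 ± 0.11 (adjusted p = 1.32e-07). Rpl32 and Rps15 changed by 1.10 ± 0.12 and 1.25 ± 0.15 at hypomorph day 6.

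The 9 resistant genes of the initiation factor list had 3 higher and none lower at KO day 4 and 3 higher and 5 lower at KO day 6. At hypomorph day 6 they had 5 higher and 2 lower. With edgeR on recovered reads 3 were higher and 3 lower at KO day 4, and without the libraries high in Alb 1 was higher and none lower. Eif3c rose from 602, 644 and 583 scaled CPM at day 0 to 853, 741 and 855 at KO day 6 and 1250, 1230 and 1290 at hypomorph day 6. All these groups were apart, and the log2 changes were 0.42 ± 0.07 and 1.04 ± 0.07 (limma adjusted p = 4.86e-06 and 1.91e-13). Eif3g rose by 0.46 ± 0.08 at KO day 4 (adjusted p = 1.97e-05). Of the 10 mitochondrial ribosomal genes, 1 was higher and 5 lower at KO day 6 (Mrpl37 by -0.63 ± 0.11, adjusted p = 6.14e-06), and 6 were higher and 1 lower at hypomorph day 6 (Mrpl42 by 0.51 ± 0.09, adjusted p = 2.52e-05).

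Of the 13 resistant proteasome subunits, 3 were higher and none lower at KO day 4, with a median log2 change of 0.11. At KO day 6, when 50.3% of all resistant genes were lower, 1 subunit was higher and 9 lower, with a median of -0.35. The centred fit gave 5 and 0, and 1 and 7, and the fit without the libraries high in Alb 1 and 0, and 1 and 6. Psmc1, an ATPase subunit, was at 243, 233 and 226 scaled CPM at day 0 and at 292, 327 and 273 at KO day 4, a log2 rise of 0.34 ± 0.09 (limma adjusted p = 0.00191). The gene that rose at KO day 6 was Psme1, of the activator cap, which went from 27.0, 21.5 and 23.7 to 38.9, 43.0 and 40.7, by 0.76 ± 0.11 (adjusted p = 6.10e-07). Psmb2 was at 126, 124 and 110 at day 0, at 135, 140 and 131 at KO day 4 and at 102, 95.4 and 102 at KO day 6, with a change of -0.27 ± 0.07 at day 6 (adjusted p = 0.00238). That call was lost in the centred fit and without the libraries high in Alb (highest adjusted p = 0.0910).

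All 4 resistant chaperones were lower at KO day 6 and at hypomorph day 6, but without the libraries high in Alb 2 of them were at hypomorph day 6. There Hsp90ab1 (-0.15 ± 0.06, limma adjusted p = 0.0422) also lost its call without day 0 replicate 1 or 3 or hypomorph replicate 2 (highest adjusted p = 0.149). Hspa8 encodes the constitutive HSP70 and went from 1470, 1390 and 1550 scaled CPM at day 0 to 445, 406 and 494 at KO day 6, by -1.71 ± 0.07 on the log2 scale (limma adjusted p = 1.14e-17), with no overlap. Hsp90ab1 changed by -0.99 ± 0.06 and Cct8 by -0.85 ± 0.08 at KO day 6. Of all resistant genes 50.3% were lower at that day and 35.9% at hypomorph day 6, beside 37.5% and 31.3% of all genes. Of the 4 mitosis genes, 3 were lower at KO day 6 and 4 at hypomorph day 6. Cdk1, the kinase that drives entry into mitosis, went from 211, 171 and 190 to 59.0, 55.5 and 63.0 at KO day 6, by -1.68 ± 0.08 (adjusted p = 1.53e-16), and Cdc20 by -1.40 ± 0.08. Nusap1, which binds the spindle, was higher by 0.72 ± 0.10 at KO day 4 (adjusted p = 1.59e-06) and by 0.34 ± 0.10 at KO day 6 (adjusted p = 0.00377; 0.0584 without day 0 replicate 3). Of the 4 helicases all were lower at KO day 6, with Dhx9 at 463, 452 and 460 at day 0, 332, 303 and 287 at KO day 4 and 152, 149 and 170 at KO day 6, a change of -1.55 ± 0.08 (adjusted p = 6.76e-16).

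The 18 basal markers summed to 38000 to 39600 scaled CPM at day 0. Their sum was 39700 to 43100 at KO day 4 and 40800 to 45400 at KO day 6. Krt14, outside the resistant set, was at 8430 to 8770 at day 0 and 6040 to 6600 at KO day 6. Krt5, also outside it, was at 13800 to 14600 and 11700 to 12900. The 3 resistant basal markers were all called higher at KO day 4. At KO day 6 Lama3 and Trp63 were higher and Itga3 lower. At KO day 4, 1 of the 3 stayed called without the libraries high in Alb. Lama3, a laminin chain, rose from 1160, 1190 and 1320 scaled CPM at day 0 to 1870, 1970 and 1760 at KO day 4 and 1980, 1920 and 2200 at KO day 6, by 0.73 ± 0.08 at day 6 (limma adjusted p = 1.02e-08). Itga3 turned with time, from 1210, 1210 and 1500 at day 0 to 1870, 1910 and 2040 at KO day 2, 1490, 1600 and 1530 at KO day 4 and 640, 633 and 737 at KO day 6. Its log2 change was 0.58 ± 0.08 at KO day 2 (adjusted p = 1.23e-05), 0.24 ± 0.08 at KO day 4 (adjusted p = 0.0171, groups overlapping) and -0.96 ± 0.08 at KO day 6 (adjusted p = 3.37e-11). The day 4 call was lost in some fits without a single library (highest adjusted p = 0.101). Trp63, at chr16:25683763-25892088, was at 510, 524 and 566 at day 0, 624, 599 and 587 at KO day 4 and 613, 572 and 664 at KO day 6. Its log2 change of 0.21 ± 0.07 at KO day 6 (adjusted p = 0.00993) was lost without day 0 replicate 1 or KO day 6 replicate 3 (highest adjusted p = 0.0725), and that at KO day 4 (0.18 ± 0.07, adjusted p = 0.0378) without any of 4 single libraries (highest 0.145). Among the highly expressed members, Anxa1 was at 2110, 2360 and 2030 at day 0 and at 1640, 1500 and 1720 at hypomorph day 6, lower by -0.42 ± 0.08 (adjusted p = 6.19e-05), while its KO libraries overlapped day 0 at each day.

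At day 4 no resistant gene was called in opposite directions in the 2 states, as 0.324% of all genes were. At day 6, 41 were lower in KO and higher in the hypomorph (6.90%, beside 4.52% of all genes and 7.33% of shifted genes). The reverse held for 13 (2.19%, beside 2.17% and 1.27%). In all 54 the states differed from each other, which opposite calls against the same day 0 libraries nearly ensure. Of all genes 64.7% differed between the states at day 6, 37.7% higher and 27.0% lower in the hypomorph, and at day 4 24.5% did, 13.9% higher and 10.7% lower. The examples here were chosen after their values were seen. Lamb1, a laminin chain at chr12:31265146-31329644, was at 113, 126 and 157 scaled CPM at day 0, 56.8, 56.4 and 59.7 at KO day 6, and 175, 196 and 200 at hypomorph day 6. The 3 groups were apart, and the log2 changes were -1.17 ± 0.09 and 0.54 ± 0.09 (limma adjusted p = 2.75e-12 and 6.45e-06). Rapgef3, an exchange factor activated by cyclic AMP, changed by -0.86 ± 0.11 in KO and 0.76 ± 0.11 in the hypomorph (adjusted p = 9.05e-08 and 7.69e-07). In the other direction Stk38, a kinase of the NDR family, was at 57.5, 57.4 and 57.2 at day 0, 94.1, 89.2 and 102 at KO day 6, and 28.2, 42.6 and 37.3 at hypomorph day 6, with changes of 0.72 ± 0.10 and -0.68 ± 0.10 (adjusted p = 3.37e-07 and 9.45e-07).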

How the data were processed

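The submitters' processing notes name STAR and featureCounts, with build mm10 for mRNA and mm9 for PAS-seq. Versions, settings, strand and the handling of reads with several matches are not given in the sources used here. Per the labels' protocols, mRNA libraries were directional, poly(A)-selected and amplified for 14 cycles. In the mRNA table the authors deposited normalized values, a signal for each gene in each library; they are written scaled CPM here because column totals run from 910422 to 1170229, while the design had assumed CPM. For PAS-seq the authors deposited 1 ratio per gene and group, proximal over distal, with no site coordinates or reads. The authors' deposited comparison sheets also hold log2 fold changes and p-values, whose test is not stated; only their Length column was used. The deposited small RNA table was not used.

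Whole reads were recovered from the signal (100% of values within 0.1 of a whole read; the unit was the lowest value in 15 libraries and a part of it in 3). Precision rests on 3 libraries a group; the PAS ratios carry no depth. Replicate libraries differed by more than sampling noise, so none was counted once with another.

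A single limma fit (version 3.58.1, R 4.3.3) covered the 18 libraries, with a term per group, trend and robust empirical Bayes, and two-sided tests. Its input was the log2 of scaled CPM plus a pseudocount of 0.5. Genes with at least 1 scaled CPM in at least 3 libraries entered (12344 of 12348), and Benjamini-Hochberg adjusted p under 0.05 was the threshold. Log2 changes are on that scale and understate changes of low genes. The fit was tested on simulated data. Alternatives were pseudocount 2, no filter, a mean of at least 5, a replicate block, depth over 40 M reads as a term, median centring, libraries with Alb above 100 left out, the groups compared alone, each replicate left out, edgeR 4.0.16 with TMM on recovered reads, and other limits of the rule.

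Members and gene lists were chosen with earlier results of these data known, and the Rab list's pattern was narrowed after its members had been seen. Genes named were the 5 largest rises and falls at KO days 4 and 6 (called, mean at least 5, groups apart), the 6 highest per kb, the 3 longest and 3 shortest, up to 3 per list by p at KO day 4, those at the limits and 3 shifted genes; Trp63, Psmb2, Cmas, the day 6 examples and other genes behind small counts were added after their values were seen. All 594 members matched the RefSeq annotation of GRCm38.p6, as protein-coding genes.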

Additional observations from a re-analysis of the deposited data

Results flagged for a closer look

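Of the resistant genes named, 10 were called in opposite directions against day 0 in KO and hypomorph cells at day 6. In each the direct comparison of the states also passed limma's threshold, which such calls against shared day 0 libraries nearly ensure. Eef1e1, Rapgef3, Stk38, Sptan1 and Mapkapk3 were named for these calls and the size of that difference, and Lamb1 partly so. Their part of the count follows from that choice. The hypomorph minus KO log2 difference at day 6 was 1.77 ± 0.11 in Eef1e1, a partner of the aminoacyl-tRNA synthetases, 1.71 ± 0.09 in Lamb1 and 1.62 ± 0.11 in Rapgef3 (adjusted p = 1.56e-13, 3.32e-15 and 8.71e-13). It was 0.44 in Psmb2 and 0.43 in Actb. It was -1.40 ± 0.10 in Stk38, -1.24 ± 0.07 in Sptan1, which encodes a spectrin chain, and -1.01 ± 0.07 in Mapkapk3, a stress-activated kinase (adjusted p = 2.16e-12, 1.00e-14 and 1.39e-12). It was -0.99 in Crip2 and -0.70 in Nusap1. Among all genes tested 64.7% differed between these groups. Day 0 libraries are shared, and the hypomorph cells alone had doxycycline, so the states and that agent cannot be told apart. Against day 0, the hypomorph calls of Eef1e1, Psmb2, Mapkapk3 and Sptan1 were lost without some single library (highest adjusted p of these fits = 0.0828, 0.218, 0.0634 and 0.132). That of Nusap1 in the KO was lost without day 0 replicate 3 (0.0584). Among the other alternatives, the hypomorph call was lost in 4 for Psmb2, 2 each for Mapkapk3 and Sptan1 and 1 for Eef1e1. The KO call of Actb was lost with libraries centred on their median and without those high in Alb (highest adjusted p = 0.633), as was that of Psmb2 (0.0910).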

How the results depend on the processing

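The number of resistant genes was 369 when the shares had to lie within 2 points, and 512, 625 and 785 with a control share under 10%, under 30% or a limit of 10 points. Within 2 points, 161 were called at KO day 4. The ratio of median levels, 2.42 per kb, was 1.23 undivided. With depth as a term 33 resistant genes were called at KO day 2. Without libraries with Alb above 100, which leaves 11 libraries and a lone one for day 0, KO day 4 and KO day 6 (assumed to vary like the other groups), the calls were 36 for KO day 2, 121 for KO day 4 and 88 for hypomorph day 4. Leaving out each replicate gave 43 to 89 calls for KO day 2, 239 to 259 for KO day 4, 448 to 460 for KO day 6, 149 to 198 at hypomorph day 4 and 435 to 451 at hypomorph day 6. Replicate numbers did not pair the samples (r of their deviations over 0.1 in 10 of 45 same-numbered pairs); with the replicate block 119, 286, 473, 223 and 462 were called in these comparisons, against 102, 272, 467, 215 and 458. The other alternatives left these counts within 1.5 times. For 66 named genes in 330 gene and comparison pairs, 4619 alternative values kept their side of the threshold, 250 lost a call, 76 gained a call, and none changed sign with its call. The PAS ratios have no replicates or depth, so no alternative bears on their error.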
